A study of Rattus norvegicus with 6 samples.

Results

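The genes of asparagine-linked (N-glycan) biosynthesis were followed in knee articular cartilage of rats whose knees had been mechanically loaded. The members were chosen by annotation: every row of the deposited count table whose KEGG pathway cell holds ko00510, the N-glycan biosynthesis map. This took 65 of 26981 rows. The pathway itself was picked from results of the same loaded against control contrast, so its counts of changed genes are given as a description and support nothing beyond it. Of the 65 rows, 51 carry the gene symbol of a pathway enzyme or, for LOC108349244 and LOC103692171, were placed by their KEGG cell, with 19 in assembly of the dolichol-linked precursor, 7 in the oligosaccharyltransferase, 9 in trimming and 16 in Golgi branching. The other 14 rows have no such symbol. Among them, NewGene_11204 and NewGene_8029 have an annotated match to Alg12, NewGene_3683 to Mgat4a and LOC108348294 to Mgat5. These 4 were left out of the steps. Other rows also match an enzyme, such as Fdxacb1 (ALG9) and Zswim5 (man2a1), and were placed in no step. Placing the 4 too was a choice made after the data were seen. It left the numbers that rose and fell in each step as they are. The medians were then -0.19 for the dolichol precursor and -0.02 for Golgi branching, on the log2 scale of the fold changes below.

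The study kept 70 male wild-type Sprague-Dawley rats, aged 6 weeks at the start, in 7 groups, and RNA-seq libraries of 2 groups are used here, with 3 libraries each. In the loaded group (labelled excessive mechanical load) the right knee and ankle were axially compressed in anaesthetised rats, with a peak of 20 N over a base of 5 N. Each session had 40 cycles of 10 s, with the base load held for 9 s and the peak for 0.5 s, and sessions were given every 2 days for 4 weeks. The control group is the blank group, which was not loaded. Whether the libraries of a group come from different rats is not stated in the labels. Each p-value here therefore rests on the variation among libraries, part or all of which may be technical.

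N-glycans are built on the lipid dolichol in the membrane of the endoplasmic reticulum, moved as a block onto asparagines of growing proteins, and then trimmed and rebuilt as the protein passes through the Golgi apparatus. The first steps are shared by nearly all secreted and membrane proteins, while the branching steps in the Golgi decide how many antennae a glycan carries and how they end. Cartilage cells secrete large amounts of glycosylated matrix protein, and so do bone-forming cells, while blood-forming cells carry N-glycans on surface receptors and granule proteins.

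The libraries held 29847274, 28435307 and 33616096 counts in the loaded group, against 36360349, 34527264 and 40332904 in the control group. Of 16447 genes that passed the filter on low counts, 2941 rose (17.9%) and 2954 fell (18.0%) in loaded against control cartilage at an adjusted p below 0.05, by edgeR's quasi-likelihood test. When libraries were scaled by their totals alone, the split was 3578 rises to 2074 falls. Chondrocyte marker genes summed to 2383 to 2489 CPM in loaded libraries and 1644 to 1722 CPM in control libraries. CPM is the count scaled to library size, with TMM factors. The levels of these marker genes show that chondrocyte RNA is present, and 6 of the 10 were called higher in loaded libraries. Markers of other cells were present too, and the lists that follow each summed higher than the chondrocyte list in both groups. Cartilage in this report names the labelled tissue, a bulk sample that also holds RNA of these other cells. Skeletal muscle markers summed to 16273 to 17116 CPM in loaded libraries and 6594 to 6746 CPM in control libraries, with all 8 genes tested higher. Osteoblast and osteocyte markers summed to 6640 to 7021 CPM in loaded libraries and 2907 to 2921 CPM in control libraries, with 7 of 9 higher. Neutrophil and myeloid precursor markers summed to 31477 to 38083 CPM in loaded libraries and 45517 to 50110 CPM in control libraries, with 7 of 9 tested lower and 1 higher. Erythroid markers summed to 122773 to 136778 CPM in loaded libraries and 137165 to 153682 CPM in control libraries, with 3 of 8 tested lower. No marker gene of these 5 lists was at 0 in every library. The part that these differences in marker levels play in the results on N-glycan genes was not tested. In such bulk samples fewer cells of a type and less RNA per cell cannot be told apart.

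Most N-glycan genes that changed were lower in loaded cartilage. Among the 65 rows, 58 passed the filter, of which 22 fell, 3 rose and 33 were not called. The shares over all genes tested were 18.0% for falls and 17.9% for rises. The median log2 fold change of the 58 rows was -0.18, beside 0.00 over all genes tested. In 25 of them all 3 loaded libraries lay below all 3 control libraries, which was so for 23.9% of all genes. All 22 genes that fell are among the 51 rows placed in a step, of which 46 were tested, with a median of -0.22. The changes were small: 3 enzymes, Man2a1, Stt3a and Man1c1, fell by 1.5-fold or more. Near the threshold, Tusc3 (adjusted p = 0.0243), Man1a1 (0.0415) and St6gal1 (0.0487) lay just inside, and B4galt3 (0.0678), Zswim5 (0.0779) and Zswim8 (0.0957) just outside, by edgeR's quasi-likelihood test.

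**Figure D1:**
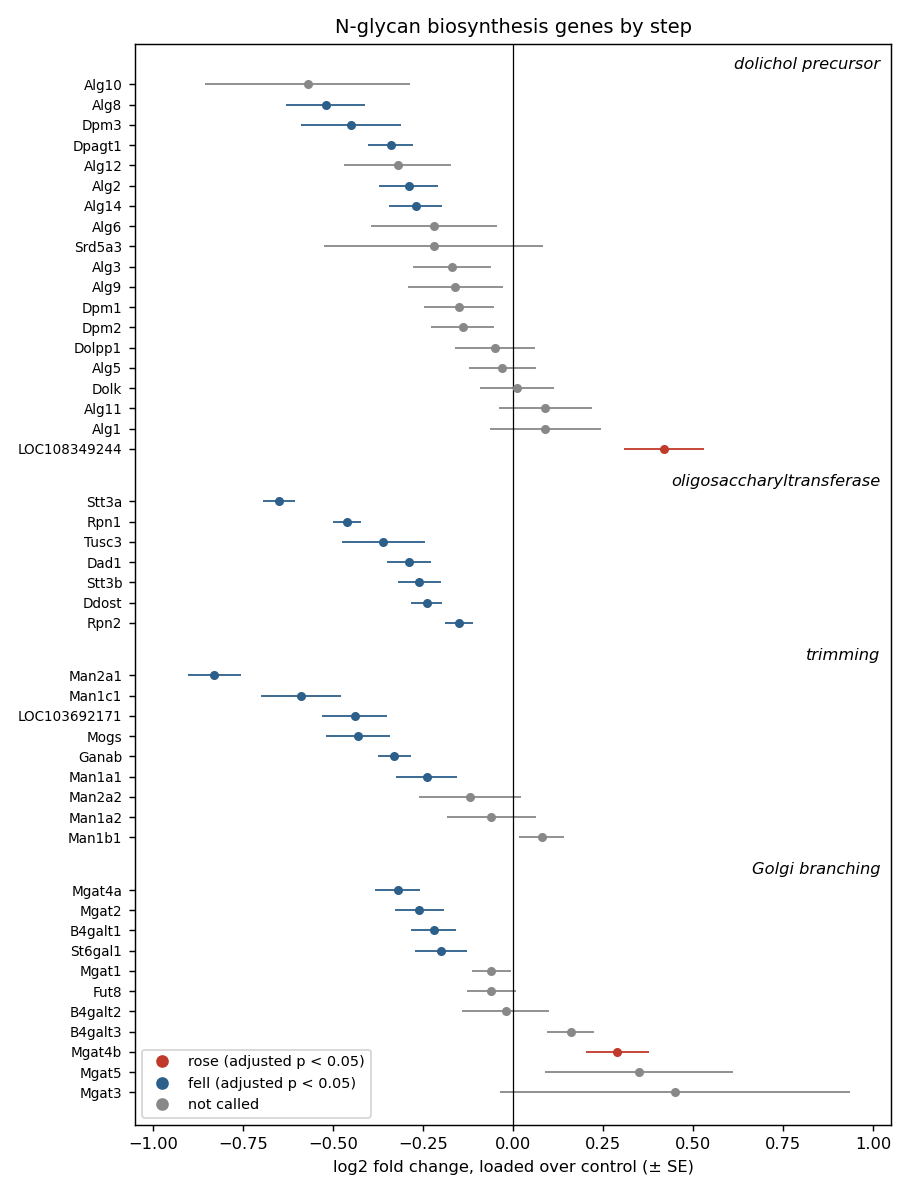
Log2 fold change of each tested row placed in a step, loaded over control, with its standard error, grouped by step (3 libraries a group). Blue points fell, red points rose and grey points were not called. All 7 oligosaccharyltransferase genes lie left of 0, from -0.65 to -0.15, while the Golgi branching genes lie on both sides.

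The promoter sequences of 4 genes described below are shown because they hold a CCAAT box, a short element found before the start site of many widely expressed genes. They come from RefSeq on rat build GRCr8 and run from 250 bases before the gene's start to 50 after it, written on the gene's strand, with each CCAAT, or its reverse complement ATTGG, in capitals. Stt3a and Rpn1 encode oligosaccharyltransferase subunits, with the lowest fold changes among the 7 annotated genes of that complex, Ddost another subunit, and Man2a1 the trimming enzyme with the lowest fold change.
Stt3a, chr8:44671911-44672210, minus strand: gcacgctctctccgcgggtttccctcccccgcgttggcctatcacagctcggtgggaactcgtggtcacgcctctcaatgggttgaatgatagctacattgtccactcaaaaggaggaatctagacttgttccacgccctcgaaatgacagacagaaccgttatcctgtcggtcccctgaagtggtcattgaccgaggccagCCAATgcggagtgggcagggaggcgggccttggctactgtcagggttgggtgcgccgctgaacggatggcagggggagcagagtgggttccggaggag
Rpn1, chr4:122100726-122101025, plus strand: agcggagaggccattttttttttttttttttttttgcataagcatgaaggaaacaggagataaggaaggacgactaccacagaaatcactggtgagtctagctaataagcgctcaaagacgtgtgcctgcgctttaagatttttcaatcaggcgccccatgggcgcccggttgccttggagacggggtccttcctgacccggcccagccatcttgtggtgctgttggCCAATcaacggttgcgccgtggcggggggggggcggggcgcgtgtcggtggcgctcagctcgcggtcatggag
Ddost, chr5:155805362-155805661, plus strand: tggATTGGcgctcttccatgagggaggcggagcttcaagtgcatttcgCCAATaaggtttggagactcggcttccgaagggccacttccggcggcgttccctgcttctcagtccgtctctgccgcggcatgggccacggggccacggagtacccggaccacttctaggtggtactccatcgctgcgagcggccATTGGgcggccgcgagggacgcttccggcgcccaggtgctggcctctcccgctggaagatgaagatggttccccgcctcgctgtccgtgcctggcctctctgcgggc
Man2a1, chr9:111698663-111698962, plus strand: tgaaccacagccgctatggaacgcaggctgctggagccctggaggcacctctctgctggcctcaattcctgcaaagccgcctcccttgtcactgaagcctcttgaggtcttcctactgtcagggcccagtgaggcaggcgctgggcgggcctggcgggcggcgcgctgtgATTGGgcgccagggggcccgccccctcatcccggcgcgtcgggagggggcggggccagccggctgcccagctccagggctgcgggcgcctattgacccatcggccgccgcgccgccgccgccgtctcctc
The box begins 48 bases before the start in Stt3a, 23 in Rpn1 and 80 in Man2a1, and Ddost holds 3, at 247, 202 and 57 bases. Exactly 1 promoter was matched for 48 of the 65 rows. Another 4 rows had several promoters and were left out, and 13 had none. CCAAT on either strand stood in 14 of 42 promoters of named enzymes (33.3%). By step it stood in 4 of 15 dolichol precursor, 4 of 6 oligosaccharyltransferase, 3 of 8 trimming and 3 of 13 Golgi branching promoters. Among genes that fell it stood in 11 of the 20 promoters, and in 3 of the 17 of named enzymes that were not called. It stood in 37.5% of 33469 rat promoters of the same length, a set that also holds those of genes with several promoters. The unfolded protein response element core ACGTGG stood in 5 of 42 promoters of named enzymes and in 7.84% of all promoters, on either strand. The endoplasmic reticulum stress element, CCAAT and CCACG with 9 bases between them, stood in none of the 48 matched promoters and in 22 of all promoters. A match is a description of these letters, not a binding site.

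Assembly of the dolichol-linked precursor had 19 rows, all tested, of which 5 fell, 1 rose and 13 were not called, with a median of -0.17. Dpagt1, the enzyme that puts the first sugar phosphate on dolichol phosphate, had 30.9, 34.0 and 33.8 CPM in loaded libraries, against 42.6, 41.6 and 40.7 CPM in control libraries. Its groups did not overlap, and its log2 fold change was -0.34 ± 0.0632 (SE). Alg8, which adds a glucose late in assembly, had 9.71, 10.2 and 9.57 CPM in loaded libraries, against 13.9, 12.9 and 15.4 CPM in control libraries. Its groups did not overlap either, with a log2 fold change of -0.52 ± 0.110. Alg14, which anchors the transferase of the second sugar, had 29.1, 25.8 and 29.0 CPM in loaded libraries, against 35.7, 32.6 and 33.3 CPM in control libraries. Alg2, a mannosyltransferase, had 21.3, 20.2 and 19.2 CPM in loaded libraries, against 25.0, 25.3 and 23.8 CPM in control libraries. In both genes every loaded library lay below every control library, with log2 fold changes of -0.27 ± 0.074 and -0.29 ± 0.0816. Dpm3, a small subunit of dolichol phosphate mannose synthase, also fell, by 0.45 on the log2 scale, while the catalytic Dpm1 (-0.15 ± 0.0974) and the subunit Dpm2 (-0.14 ± 0.0882) were not called.

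The row that rose is LOC108349244, placed here by its KEGG cell, which names ALG13, the partner of Alg14 in adding the second sugar. It had 15, 13.9 and 13.5 CPM in loaded libraries, against 11.2, 9.37 and 11.0 CPM in control libraries. The groups did not overlap, and its log2 fold change of 0.42 ± 0.111 runs against that of Alg14. Across the rest of the assembly line the values were mixed: the mannosyltransferases Alg1 and Alg11 had 0.09 each, Alg3 -0.17, Alg9 -0.16 and Alg12 -0.32, none called. The glucosyltransferases Alg6 (-0.22) and Alg10 (-0.57 ± 0.285, at 1.21 to 1.83 CPM in loaded and 1.84 to 3.07 CPM in control libraries) were not called, and neither was Alg5 (-0.03), which makes their glucose donor. Of the dolichol enzymes, Dolk had 0.01, Dolpp1 -0.05 and Srd5a3 -0.22 ± 0.304, none called. Without control replicate 1, where Alg14 had an adjusted p of 0.0605 and Alg2 of 0.0511, 3 genes of this step fell in place of 5. Library totals also ended the calls of Alg14 (adjusted p = 0.0677) and Alg2 (adjusted p = 0.0731). Dpm3 was not called without loaded replicate 3 or control replicate 3, with an adjusted p of up to 0.105. Without loaded replicate 2, Alg12 was called, with an adjusted p of 0.0482.

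The oligosaccharyltransferase, which moves the finished glycan from dolichol onto the protein, had lower levels in all its annotated parts. All 7 subunit genes were called (5 with library totals, where Rpn2 and Tusc3 were not), in all 7 the loaded libraries lay below the control libraries, and the median log2 fold change was -0.29. Summed over the 7, the level was 908 ± 12.4 CPM in loaded libraries and 1160 ± 14.4 CPM in control libraries (SD, n = 3 each). Stt3a, the catalytic subunit of the complex that works beside the translocon while the protein is made, had 96.6, 96.5 and 97.5 CPM in loaded libraries, against 153, 154 and 150 CPM in control libraries. The 3 libraries of each group differ by little and the groups lie far apart, with a log2 fold change of -0.65 ± 0.0444 (adjusted p = 2.86e-08, edgeR's quasi-likelihood test). Stt3b, the catalytic subunit of the complex that can also act after synthesis, had 50.8, 52.5 and 57.7 CPM in loaded libraries, against 65.5, 61.5 and 65.9 CPM in control libraries. Its fall was smaller, -0.26 ± 0.0593.

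The shared subunits fell too. Rpn1 (ribophorin I) had 297, 307 and 313 CPM in loaded libraries, against 430, 412 and 423 CPM in control libraries, a log2 fold change of -0.46 ± 0.0387. Rpn2 (ribophorin II) had 221, 213 and 219 CPM in loaded libraries, against 244, 240 and 239 CPM in control libraries, a smaller shift of -0.15 ± 0.0396. This call rests on the scaling, since with library totals the adjusted p of Rpn2 was 0.233. Ddost had 167, 155 and 165 CPM in loaded libraries, against 189, 191 and 194 CPM in control libraries, and Dad1, a small membrane subunit, had 62.7, 60.9 and 59.7 CPM in loaded libraries, against 71.3, 71.1 and 82.0 CPM in control libraries. Neither gene's groups overlapped, and the log2 fold changes were -0.24 ± 0.0441 for Ddost and -0.29 ± 0.061 for Dad1. Tusc3, an oxidoreductase subunit of the STT3B complex, had 10.0, 12.4 and 10.4 CPM in loaded libraries, against 15.2, 13.2 and 13.9 CPM in control libraries. Its log2 fold change was -0.36 ± 0.116, and it lost its call without loaded replicate 1 or 3 or control replicate 1 or 3, with adjusted p values of 0.0635 to 0.114. The call of Tusc3 was also lost with library totals (adjusted p = 0.0631).

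**Figure D2:**
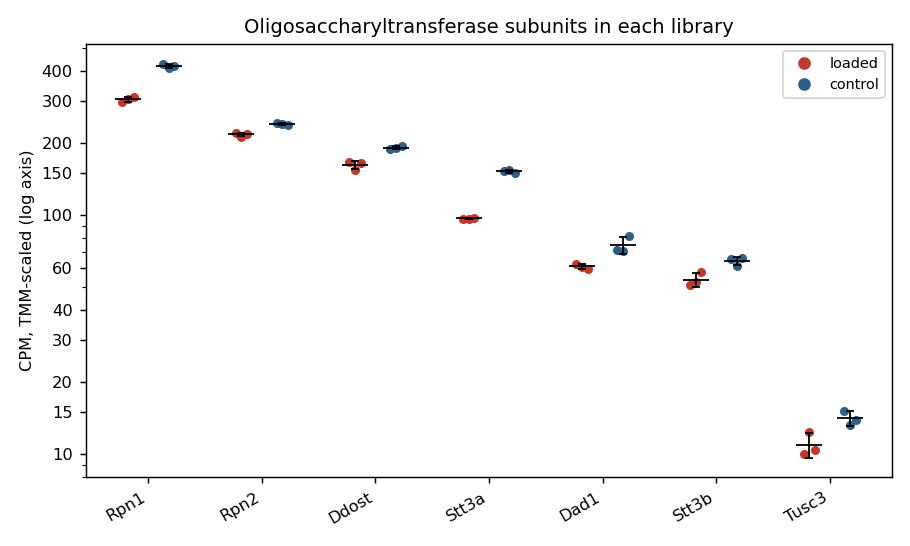
CPM of the 7 annotated oligosaccharyltransferase genes in each library on a log axis, with loaded libraries in red and control libraries in blue; bars are the mean and SD of 3 libraries. The loaded points lie below the control points for every gene, with the widest gap in Stt3a (96.9 in loaded and 152 CPM in control on average).

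The KEGG annotation leaves out some subunits, which were looked up by symbol from a list of pathway genes. Ost4, a small subunit, fell, with 89.2, 98.7 and 80.0 CPM in loaded libraries, against 138, 120 and 133 CPM in control libraries (log2 fold change -0.55 ± 0.0763). Ostc, found in the STT3A complex, fell by 0.19 on the log2 scale, but was not called with library totals or without loaded replicate 1, control replicate 1 or control replicate 3, with an adjusted p of up to 0.0976. Magt1, the paralog of Tusc3, had 111, 98.4 and 123 CPM in loaded libraries, against 108, 112 and 113 CPM in control libraries. Those groups overlapped and Magt1 was not called (-0.00 ± 0.0685), nor was Krtcap2 (0.04 ± 0.0623), another subunit of the STT3A complex. Of the 8 genes looked up in this way, over all steps, 3 fell and 5 were not called, with a median of -0.10. The third was Dhdds (-0.29 ± 0.0675), the catalytic subunit of the enzyme that makes the dolichol chain, while its partner Nus1 had 0.12 ± 0.0592 and was called only with library totals or without control replicate 1 among the alternatives tried (lowest adjusted p 0.0178).

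Trimming followed with 6 of 9 rows lower, none higher and a median of -0.33. Mogs and Ganab take the glucoses off the new glycan. Ganab, the catalytic subunit of glucosidase II, had 98.6, 95.3 and 96.7 CPM in loaded libraries, against 121, 123 and 120 CPM in control libraries, a log2 fold change of -0.33 ± 0.0459. Its regulatory partner Prkcsh, outside the annotation, had -0.12 ± 0.0476 and was not called (adjusted p = 0.0542). Mogs, glucosidase I, had 16.0, 17.5 and 15.5 CPM in loaded libraries, against 21.6, 21.8 and 22.4 CPM in control libraries, a change of -0.43 ± 0.0888. LOC103692171, whose KEGG cell names the same enzyme, had 15.4, 16.8 and 15.1 CPM in loaded libraries, against 21.0, 21.3 and 21.7 CPM in control libraries. The values of this row follow those of Mogs so closely that the rows may share reads, and without it 21 rows of the pathway fell.

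The mannosidases split by gene. Man2a1, the Golgi mannosidase II that makes way for complex glycans, had 37.8, 31.1 and 36.5 CPM in loaded libraries, against 66.1, 61.6 and 59.8 CPM in control libraries. This was the lowest fold change among the named enzymes tested, -0.83 ± 0.0731, or 1.78-fold lower in loaded cartilage. Its paralog Man2a2 had 12.5, 11.3 and 8.79 CPM in loaded libraries, against 10.8, 13.6 and 10.9 CPM in control libraries, with overlapping groups and no call (-0.12 ± 0.142). Among the class I mannosidases, Man1c1 had 16.4, 16.4 and 21.1 CPM in loaded libraries, against 26.0, 30.4 and 25.0 CPM in control libraries, a change of -0.59 ± 0.111 with no overlap. Man1a1 had 29.2, 27.0 and 34.4 CPM in loaded libraries, against 36.2, 36.7 and 34.0 CPM in control libraries. Its groups overlapped, and its call (-0.24 ± 0.0847) was lost when any library but loaded replicate 3 was left out, with adjusted p values of 0.0629 to 0.153, and with library totals (0.185). Man1a2 had 11.4, 9.29 and 9.19 CPM in loaded libraries, against 9.70, 11.2 and 10.2 CPM in control libraries, and was not called (-0.06 ± 0.124), nor was Man1b1 of the endoplasmic reticulum (0.08 ± 0.0628).

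Golgi branching and capping had 16 rows, of which 11 passed the filter, 4 fell, 1 rose and 6 were not called, with a median of -0.06. Without control replicate 1 or control replicate 3 the falls numbered 2. Mgat2, which starts the second antenna, had 62.7, 65.4 and 74.7 CPM in loaded libraries, against 80.9, 76.1 and 86.6 CPM in control libraries (-0.26 ± 0.0691). Mgat1, which starts the first antenna, was not called (-0.06 ± 0.055). Mgat4a and Mgat4b both add a further branch on the same arm, and they moved in opposite directions. Mgat4a had 36.1, 38.3 and 35.1 CPM in loaded libraries, against 48.1, 44.8 and 43.7 CPM in control libraries, a fold change of -0.32 ± 0.063 on the log2 scale. Mgat4b had 26.9, 29.7 and 24.6 CPM in loaded libraries, against 20.9, 23.5 and 21.9 CPM in control libraries, a change of 0.29 ± 0.088. The groups did not overlap in either gene, but the rise of Mgat4b was not called without loaded replicate 2, control replicate 1 or control replicate 3, with adjusted p values of 0.0643 to 0.0915. Mgat5, which makes the branch bound by galectins, had 3.13, 2.07 and 2.29 CPM in loaded libraries, against 1.72, 1.69 and 2.45 CPM in control libraries, and Mgat3, which adds the bisecting sugar, reached at most 1.19 CPM in loaded and 0.73 CPM in control libraries. Neither was called (0.35 ± 0.261 and 0.45 ± 0.487).

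The galactosyltransferases extend the antennae. B4galt1 had 33.8, 35.9 and 33.4 CPM in loaded libraries, against 41.8, 38.4 and 40.2 CPM in control libraries. Its fall of -0.22 ± 0.063, with no overlap between groups, was not called without control replicate 1 or 3, with adjusted p values of 0.0739 and 0.0508, or with library totals (0.0905). B4galt3 had 49.8, 43.1 and 43.7 CPM in loaded libraries, against 41.1, 39.4 and 41.5 CPM in control libraries. All 3 loaded libraries lay above the control libraries, but the gene was not called (0.16 ± 0.0659), except without loaded replicate 2 (adjusted p = 0.0452), with a stricter filter or with library totals. B4galt2 had 8.37, 9.33 and 9.19 CPM in loaded libraries, against 9.07, 9.67 and 8.49 CPM in control libraries, with overlapping groups (-0.02 ± 0.121). Fut8, which adds the core fucose, had 33.0, 31.8 and 30.4 CPM in loaded libraries, against 31.3, 34.2 and 33.4 CPM in control libraries, with overlapping groups and no call (-0.06 ± 0.0682). St6gal1, which caps antennae with sialic acid, had 24.6, 25.3 and 24.1 CPM in loaded libraries, against 27.2, 28.8 and 28.7 CPM in control libraries. These groups did not overlap, yet the call of St6gal1 (-0.20 ± 0.0726) held in 3 of 13 alternatives and was lost without loaded replicate 1 or 3 or any control replicate, with adjusted p values of up to 0.158. The 5 rows that did not pass the filter were St6gal2, Mgat4c and Mgat4d, with no counts in any library, Mgat4e, with at most 5 counts, and Mgat5b, with 8 counts in loaded replicate 1 and none elsewhere. A count of 0 allows up to 3 counts, or 0.0744 to 0.106 CPM at these depths, as counting error only.

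**Figure D3:**
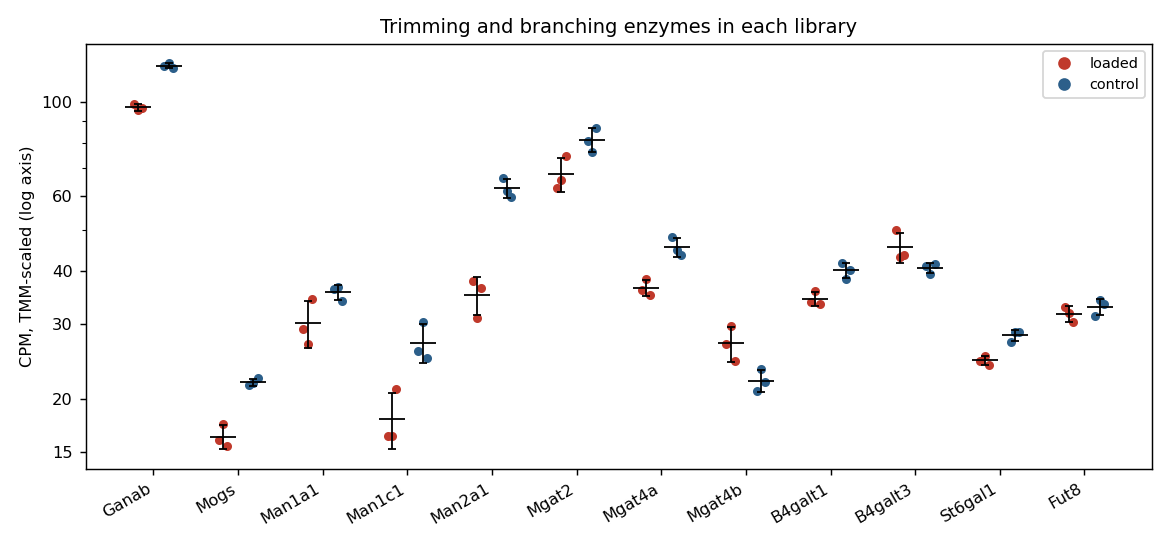
CPM of 12 trimming and branching enzymes in each library on a log axis, loaded in red and control in blue, with the mean and SD of 3 libraries. Man2a1 shows the widest gap (35.1 in loaded and 62.5 CPM in control on average), Mgat4a and Mgat4b move in opposite directions, and the Fut8 points overlap.

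Related members differed within the libraries, which was read as the ratio of their deposited FPKM values, a level per length of transcript. The log2 ratio of Stt3a to Stt3b was 0.38, 0.30 and 0.18 in loaded libraries, against 0.57, 0.65 and 0.53 in control libraries, so Stt3a was 1.22-fold above Stt3b in loaded and 1.5-fold in control libraries. The mean difference, loaded minus control, was -0.30 from FPKM and -0.39 from the counts. The log2 ratio of Man2a1 to Man2a2 averaged 0.90 ± 0.298 in loaded libraries and 1.63 ± 0.204 in control libraries. That of Mgat4a to Mgat4b averaged -1.15 ± 0.0736 in loaded libraries and -0.54 ± 0.140 in control libraries. Of 8 pairs compared, 6 had every loaded ratio below every control ratio, and the pairs Tusc3 to Magt1 and Man1a1 to Man1a2 overlapped. In every pair the first gene is one that fell, and the second fell less, was not called or rose. The shared direction of the ratios therefore follows from the fold changes given above and adds nothing to them. The ratios are given as a description with no test, since the contrast was known when the pathway was picked; an exact two-sided permutation test of 3 libraries against 3 cannot give a p below 0.1. The pair Rpn1 to Rpn2 was added after its values were seen, with ratios of 1.61 in loaded and 2.00 in control libraries.

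**Figure D4:**
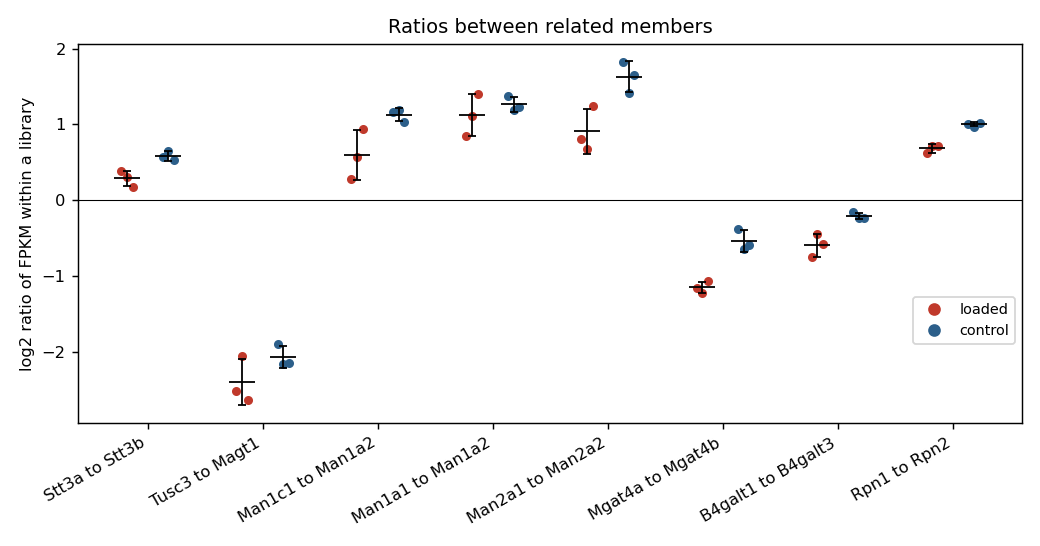
Log2 ratio of the FPKM values of 8 pairs of related members in each library, loaded in red and control in blue, with the mean and SD of 3 libraries. The loaded ratios lie below the control ratios in 6 pairs, while Tusc3 to Magt1 and Man1a1 to Man1a2 overlap.

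The 14 rows without an enzyme's gene symbol held 12 that were tested, of which 1 rose, none fell and 11 were not called, with a median of -0.03. RGD1308706 rose, with 35.5, 38.2 and 39.6 CPM in loaded libraries, against 26.2, 24.4 and 25.7 CPM in control libraries, and no overlap (0.57 ± 0.0704). Its place in the pathway rests only on a match to a protein of another species, with an expect value of 4.5e-06. The rows Zswim4, Zswim5, Zswim6 and Zswim8 are in the annotation because their best KEGG match was a protein of another species named man2a1, so their place in the pathway rests on that match alone. Their log2 fold changes were 0.09, -0.85, -0.36 and -0.28, none called. Leaving out loaded replicate 2 called Zswim5 (adjusted p = 0.0483), and leaving out loaded replicate 1 called Zswim8 (adjusted p = 0.0375).

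Other genes of the secretory route were read from lists of known members. Of 18 genes of donor sugar synthesis tested, 9 fell and 2 rose, with a median of -0.19, including Gfpt2, which begins hexosamine synthesis, at 8.35 CPM in loaded and 14.9 CPM in control libraries on average (-0.84 ± 0.109). Of 9 Golgi sugar transporters, 3 fell and none rose, with a median of -0.04, and the GDP-fucose transporter Slc35c1 had the smallest adjusted p among them (-0.59 ± 0.0656). Of 18 genes of glycoprotein quality control, 8 fell and 1 rose, with a median of -0.13. Among these, Uggt1, which puts a glucose back on misfolded glycoproteins, had 48.1, 49.6 and 48.8 CPM in loaded libraries, against 82.6, 81.6 and 81.2 CPM in control libraries (-0.74 ± 0.0491). The lectin chaperone Calr also fell (-0.44 ± 0.0331). Of 5 genes of mannose 6-phosphate tagging, 2 fell, one of them the receptor Igf2r (-0.48 ± 0.0576), with a median of -0.16.

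Of 9 outer arm sialyltransferases tested, 2 fell and 1 rose, with a median of -0.03, and St3gal2 and St3gal6 had opposite log2 fold changes of -0.48 ± 0.0613 and 0.48 ± 0.093. Of 17 translocon and signal peptidase genes, 10 fell and none rose, with a median of -0.18, the channel subunit Sec61a1 among them (-0.58 ± 0.0544). Of 17 genes of the endoplasmic reticulum stress response, 10 fell and 2 rose, with a median of -0.25. The 2 that rose were the transcription factors Ddit3 (0.85 ± 0.0913) and Atf4 (0.36 ± 0.0392), while Creld2, a gene induced by such stress, fell (-0.56 ± 0.0543). Beside these counts stand the shares over all genes tested, 17.9% for rises and 18.0% for falls. Differences between the lists were not tested.

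**Figure D5:**
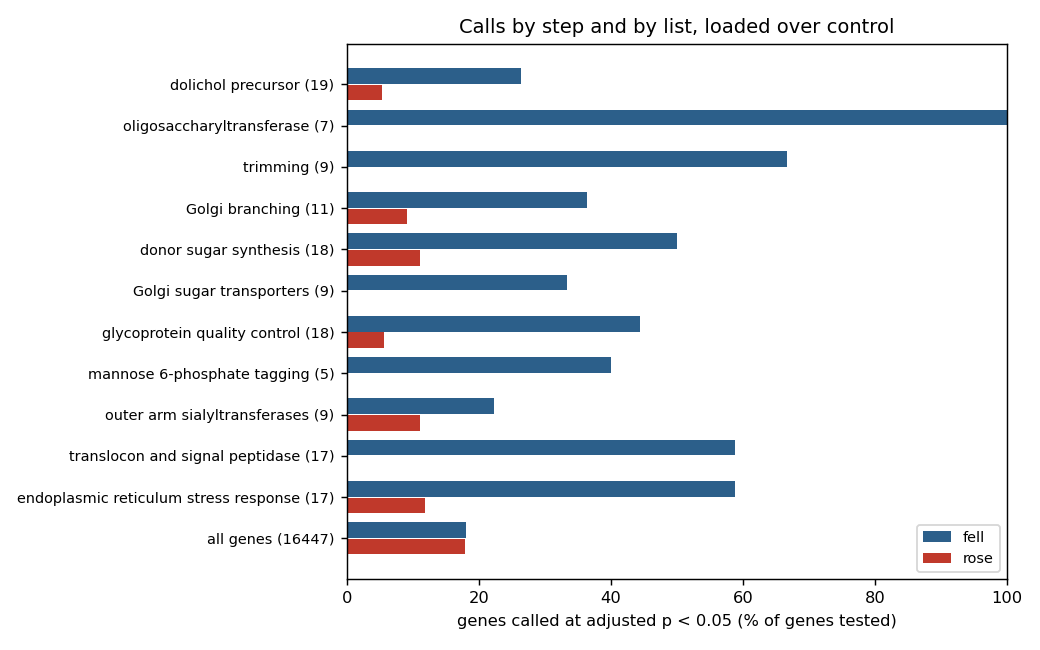
Share of genes tested that fell (blue) or rose (red) at an adjusted p below 0.05, for the 4 steps of the pathway, 7 other lists of the secretory route and all genes, with the number tested in parentheses. All 7 oligosaccharyltransferase genes fell, and over all genes the falls and rises were about equal, at 18.0% and 17.9%.

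Summed over the 51 rows placed in a step, the level was 1893 ± 37.8 CPM in loaded libraries and 2286 ± 34.2 CPM in control libraries (SD, n = 3 each). As a share of all counts this was 0.185% to 0.201% in loaded libraries and 0.222% to 0.223% in control libraries. By step, the log2 ratio of the summed levels, loaded over control, was -0.35 for the oligosaccharyltransferase, -0.30 for trimming, -0.18 for the dolichol precursor and -0.10 for Golgi branching. The sum over all rows and that of trimming include LOC103692171, which may share reads with Mogs. It averaged 15.8 CPM in loaded and 21.3 CPM in control libraries. The authors' deposited table holds a fold change for 54 of the 65 rows. It has the same sign as the values here in all 54, with a largest difference of 0.0211 on the log2 scale. In the authors' deposited table no member passed their threshold of an FDR of 0.01 with a 2-fold change, and 24 had an FDR below 0.05, of which 21 were lower in loaded cartilage.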

How the data were processed

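Knee cartilage of loaded and control rats was measured by mRNA sequencing, in 3 libraries a group. The submitters' processing notes name HISAT2, DESeq2 and the build mm10, a mouse build, while the gene identifiers are rat Ensembl ones, so the build is uncertain and no coordinates were taken from the files. For the counter, annotation release and strand setting, the value is not given in the sources used here. The deposited table gives, per the file headers, raw counts per gene, FPKM values by the authors, and the authors' FDR and log2 fold change. Reads of genes with near-identical copies or overlapping neighbours may be split.

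The counts were fitted with edgeR 4.0.16 (limma 3.58.1, DESeq2 1.42.0 and R 4.3.3 for alternatives): filterByExpr, TMM scaling, a robust quasi-likelihood fit on group and Benjamini-Hochberg adjustment over 16447 genes; 10534 were left out as low. The script was tested on simulated data. FPKM ratios used a pseudocount of 0.01. Standard errors come from the log2 fold change and its F statistic. Values in every library were given for up to 5 called genes a step with the smallest adjusted p, and for paralogs named in a list. Up to 3 called genes from each other list could be named, and further genes were given by fold change. Library values added to Rpn2, Ost4, RGD1308706, Mgat3 and Alg10 were chosen after they were seen. The library values of Uggt1 and the group means of Gfpt2 were also given outside this rule. The members and lists were chosen with earlier results of these data known. Alternatives were DESeq2, limma-voom, other scalings, other filters, a replicate block and leaving out each library.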

Additional observations from a re-analysis of the deposited data

How the results depend on the processing

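Of the 13 alternatives, none reversed the direction of a called gene whose library values are given by the naming rule. The number of N-glycan rows that fell ranged from 15 (library totals) to 23, and was 22 in the report. Library totals moved the median of all genes by 0.08 on the log2 scale, the median of the rows to -0.11, the falls in the dolichol precursor to 3, those in Golgi branching to 2, in the oligosaccharyltransferase to 5 and in trimming to 5. Leaving out 1 library gave 3 to 6 falls in the dolichol precursor and 2 to 4 in Golgi branching, with 2 without control replicate 1 or control replicate 3. The ratio of Stt3a to Stt3b differed by -0.39 when taken from counts, and the cause was not tested. Uncalled values near 0 changed sign: Magt1 was 0.07 with library totals and 0.01 with the stricter filter, and -0.09 to 0.07 when 1 library was left out. Man1a2 was 0.02, B4galt2 0.06 and Fut8 0.02 with library totals, and leaving out 1 library gave -0.24 to 0.01 for Man2a2 and -0.07 to 0.03 for B4galt2. Replicate numbers are shared by the groups. Over all genes the deviations of libraries with the same number had small correlations, of -0.0139, 0.0462 and 0.0207. Loaded replicate 1 correlated best with control replicate 3 (0.0293), while loaded replicates 2 and 3 each correlated best with the control library of the same number. Whether libraries with the same number share a source was not tested. With the replicate block, 20 rows fell and 3 rose, among 5349 genes called; Tusc3 (adjusted p = 0.05), Man1a1 (0.0684) and St6gal1 (0.0744) were then not called. Depth limits the genes at or near 0 counts, for which no change could be read, and 3 libraries a group limit the rest.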

Other observations

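Srd5a3, which takes part in making dolichol, was looked at after its values were seen. It had 56.7, 36.3 and 61.3 CPM in loaded libraries, against 71.7, 43.7 and 64.1 CPM in control libraries, so that replicate 2 was the lowest library in both groups. It was not called (log2 fold change -0.22 ± 0.304) except with the replicate block, where its adjusted p by edgeR's quasi-likelihood test was 0.0273.

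Adipocyte marker genes, 5 of 5 of which fell, summed to 99 to 114 CPM in loaded libraries and 199 to 211 CPM in control libraries. Osteoclast markers summed to 1139 to 1198 CPM in loaded libraries and 727 to 757 CPM in control libraries, with 3 of 6 higher and none lower. Macrophage markers summed to 779 to 809 CPM in loaded libraries and 640 to 661 CPM in control libraries, with 4 of 8 higher and 3 lower. B and plasma cell markers summed to 867 to 888 CPM in loaded libraries and 817 to 831 CPM in control libraries, with 3 of 11 higher and 2 lower. Endothelial markers summed to 79.5 to 88.9 CPM in loaded libraries and 83.9 to 91.7 CPM in control libraries, and these ranges overlapped.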
